A study of Arabidopsis thaliana with 16 samples.

Results

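The genes described here encode proteins of the cytosolic 60S subunit, the large subunit of the plant ribosome. They were given as 60 Arabidopsis locus codes of 28 protein families, and each was matched by locus to the probe sets of the array. Of the 60, 45 genes of 23 families had a probe set that names exactly 1 gene, out of 13286 genes with such a probe set. Of the other 15, 3 (RPL21E, RPL32A and RPL32B) lay on a probe set shared by several genes, and 12 were on no probe set named here. Each of the 45 was read by 1 probe set, none with the suffix that marks cross-hybridization, although near-identical paralogs may still share signal.

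Signals came from 16 Affymetrix ATH1 arrays of 14-day-old Arabidopsis seedlings of the Columbia ecotype, grown on MS medium in days of 16 h light and 8 h dark. Wild-type seedlings and seedlings that overexpress OsGRX8, a glutaredoxin gene of rice, were each kept for 3 h in water, in 100 µM indole-3-acetic acid (IAA, an auxin), in 200 mM NaCl or in 25 µM methyl viologen (MV, a herbicide that generates superoxide). All 8 groups therefore shared the same age, medium and immersion, and each group had 2 arrays, called biological replicates in the series' design text. The promoter of the transgene, and whether the line is 1 clone, are not stated in the sources used here, and the level of the rice transgene was not analysed here. Whole seedlings were used, so a lower signal from fewer cells of one type and from less RNA per cell cannot be told apart.

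The 60S subunit forms peptide bonds and holds the tunnel through which the nascent protein leaves. Its proteins are made in the cytosol, imported into the nucleolus, built onto rRNA there, and exported as a precursor subunit, so each is needed in about the same number of copies. In plants each protein is encoded by a small family of near-identical paralogs, and transcripts of the families are among the most abundant of growing tissue. The sources carry locus codes only. The RPL names used here are those of the standard Arabidopsis nomenclature, with A, B, C and D for the paralogs of a family.

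Signals are log2 values of the RMA method, which corrects background, equalizes the arrays and summarizes the probes of a set, so a difference of 1 is a 2-fold change. Brightness differs between probe sets for the same amount of RNA, so levels were compared only within a gene. Mean signals of the 45 members over 16 arrays ran from 1.1 to 9.6 with a median of 8.42, above 97.5% of all probe sets. Of the members, 35 were above 7 and 42 were above 3.12, the median of all probe sets. RPL13C (AT3G48960), RPL8B (AT3G51190) and RPL30A (AT1G36240) were under 3. RPL13C and RPL8B lay near 0.822 to 0.988, the mean per array of the control probe sets for a bacterial transcript that had not been added. Changes in the RNA of these genes could therefore go unseen. The highest member signal was 10.05, and the highest value of any probe set on an array was 11.55 to 11.72, so no member was at the top of the scale. Of the root markers, PYK10 read 8.62 to 9.69 while the root-hair expansins EXPA7 and EXPA18 read 1.14 to 2.3 and 1.15 to 2.57. Seed and pollen markers OLEO3 and AMS read at most 1.86, and none of 8 green-shoot markers had a probe set named here, so the green tissue of the seedlings could not be checked in this way.

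Across all 8 groups the 60S transcripts were close to flat. A moderated F test in limma, which asks whether any of the 8 group means differ, called 2 of 45 members at an adjusted p below 0.05 (Benjamini-Hochberg adjustment over 22746 probe sets, used throughout), where 24.3% of all probe sets were called. The 2 were RPL37A (AT1G15250, adjusted p = 0.0155) and RPL26B (AT5G67510, adjusted p = 0.016). RPL12C (AT5G60670) came next, at an adjusted p of 0.0817. The range of a member from its lowest to its highest array was 0.43 to 1.67 with a median of 0.84. The brighter 11373 of the 22746 probe sets had a median range of 1.26. They were not matched to the members in signal, since the median member was above 97.5% of all probe sets. At the other end of the F test stood RPL8B (adjusted p = 0.917) and RPL30A (0.928). RPL30A read between 1.78 and 2.73 and RPL8B between 0.9 and 1.61 on the 16 arrays, and in both, arrays of the same group lay up to nearly the whole range apart. The F test count was 6 without replicate 1 of wild type in IAA and 1, RPL37A, without replicate 2 of the OsGRX8 line in MV.

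**Figure D1:**
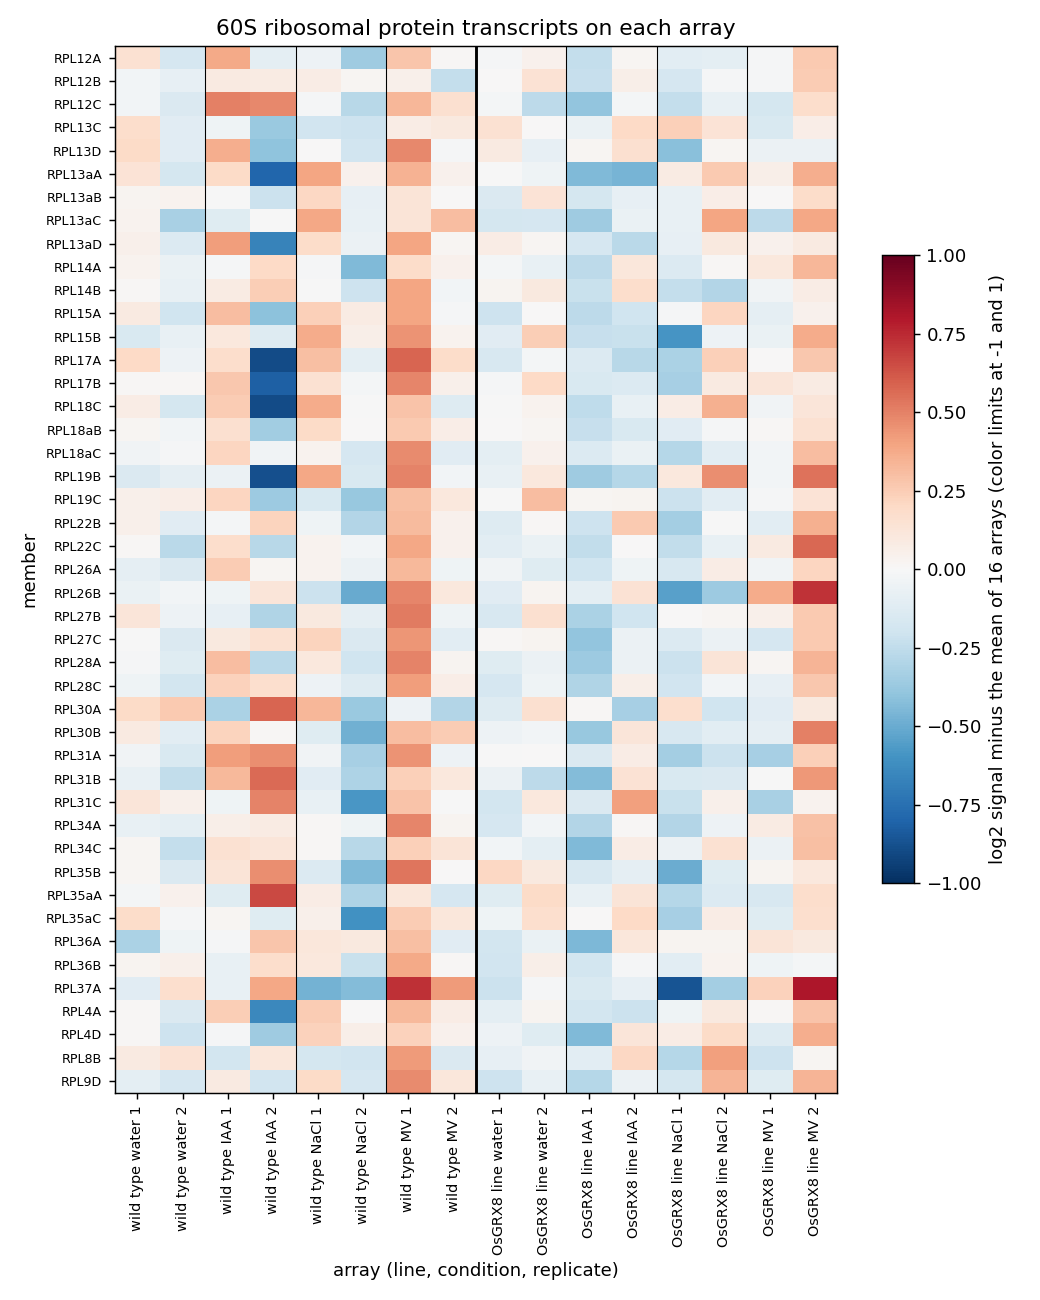
Log2 signal of each of the 45 measured members (vertical axis) on each of the 16 arrays (horizontal axis) as the difference from the member's mean over all arrays, in log2 units. Whole columns share a color, above all replicate 1 of wild type in MV and replicate 2 of the OsGRX8 line in MV, while RPL37A and RPL26B are low on all 4 NaCl arrays and high on all 4 MV arrays.

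What the members shared was a movement together from array to array, replicates included. The median member lay 0.349 above its own mean on replicate 1 of wild type in MV, but only 0.0298 above on replicate 2. In the OsGRX8 line the order was turned, with -0.0296 on replicate 1 and 0.256 on replicate 2. On the same 4 arrays the median of all probe sets stayed between -0.0303 and -0.014. The split followed the replicate number within each line. In wild type, replicate 1 was the higher array for 32 of 45 members in water, 28 in IAA, 44 in NaCl and 43 in MV. In the OsGRX8 line, replicate 2 was the higher one for 34, 40, 42 and 42 members in the same order. Of all probe sets, 43.8% to 52.0% were higher on replicate 1 in the 8 groups. Water arrays at 0.0153 and -0.106 in wild type and at -0.072 and 0.0133 in the OsGRX8 line were closer together than the MV arrays.

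The other cytosolic ribosomal protein genes moved with the members. On replicate 1 of wild type in MV, the median of 33 other 60S genes was 0.365 above their own means and that of 47 genes of the 40S subunit was 0.334 above. On replicate 2 of the OsGRX8 line in MV these values were 0.288 and 0.21. Nuclear genes for plastid ribosomal proteins, of which 9 were measured, stood at -0.212 and 0.0119 on those arrays. Taken over the 16 arrays, the Pearson correlation of a member with the mean of the other 44 had a median of 0.632, with RPL28A (AT2G19730) highest at 0.947 and RPL30A lowest at -0.0788. The median correlation with the mean of the members was 0.609 for the other 60S genes, 0.585 for the 40S genes, 0.425 for 14 genes of ribosome assembly, -0.174 for the plastid genes and -0.021 for all probe sets. These correlations describe 16 arrays that share their normalization. Of the genes outside the cytosolic ribosomal proteins, the 5 most like the members' mean over the 16 arrays were AT1G04900 (r = 0.871), AT1G52930 (0.866), AT1G26540 (0.857), AT3G11830 (0.843) and AT1G17960 (0.836). AT1G52930 is BRX1b, the highest of the 14 assembly genes.

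**Figure D2:**
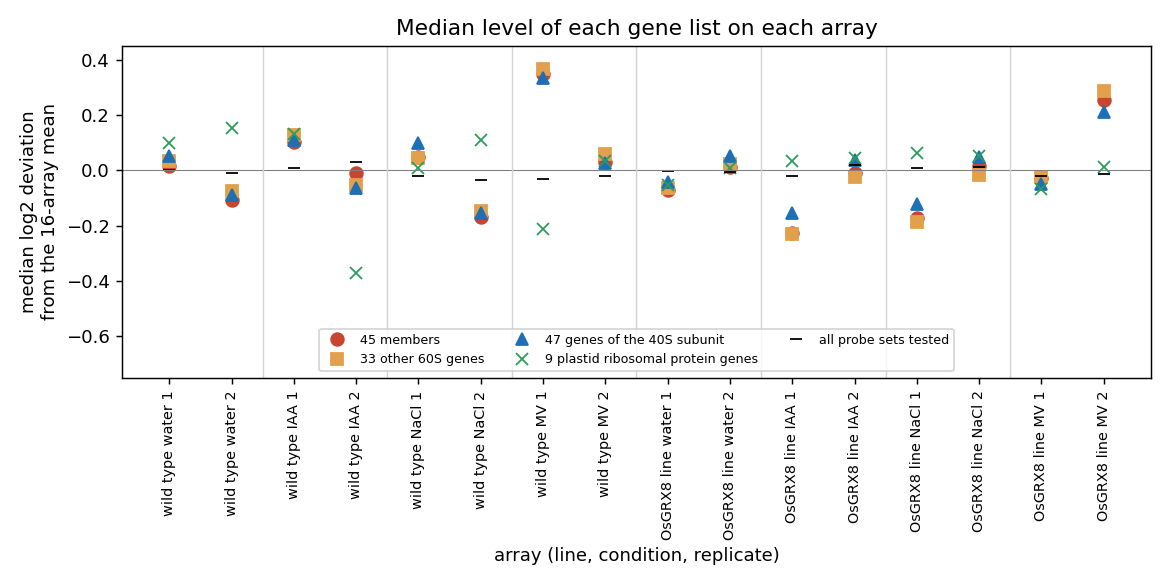
Median log2 deviation of 5 gene lists from their own 16-array means (vertical axis, log2 units) on each array (horizontal axis). Members, other 60S genes and 40S genes sit together on every array and reach 0.349, 0.365 and 0.334 on replicate 1 of wild type in MV, while all probe sets stay near 0.

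Salt moved a large part of the transcriptome but hardly any 60S transcript. Over the mean of both lines (4 NaCl arrays against 4 water arrays), 1 of 45 members was called, RPL37A, which fell, against 25.5% of all probe sets called and 12.3% called lower. The median log2 change of the members was -0.0308 and that of all probe sets 0.0015. In size, without sign, the median change was 0.131 for members and 0.203 for all probe sets. No member changed by more than 0.49 on the log2 scale, where single probe sets ran from -5.66 to 5.68, and 39 of 45 members (86.7%) lay within 1.2-fold of water, against 57.4% of all probe sets. For every one of the 45 members the 95% confidence interval of the change stayed within 2-fold, and for 34 within 1.5-fold.

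RPL37A encodes a small zinc-binding protein of the 60S subunit. In wild type it read 4.24 and 4.52 in water, 4.28 and 4.74 in IAA, 3.88 and 3.92 in NaCl, and 5.08 and 4.78 in MV. In the OsGRX8 line it read 4.14 and 4.34 in water, 4.20 and 4.27 in IAA, 3.49 and 4.01 in NaCl, and 4.58 and 5.16 in MV. Every NaCl array was below every water array, and every MV array was above every water array, in both lines. RPL37A fell by 0.49 ± 0.17 (SE) on the log2 scale in NaCl, a 1.4-fold lower signal (limma, adjusted p = 0.0491). That call rested on a narrow margin: it was lost when any 1 of 7 of the 8 NaCl and water arrays was left out, with log2 changes from -0.56 to -0.36, and kept without replicate 2 of the OsGRX8 line in NaCl.

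RPL26B encodes one of 2 paralogs of a protein at the exit of the nascent-chain tunnel. Wild-type signals were 7.50 and 7.54 in water, 7.52 and 7.69 in IAA, 7.35 and 7.06 in NaCl, and 8.05 and 7.67 in MV. Those of the OsGRX8 line were 7.45 and 7.59 in water, 7.47 and 7.71 in IAA, 7.02 and 7.20 in NaCl, and 7.94 and 8.29 in MV. As with RPL37A, all 4 NaCl arrays were below and all 4 MV arrays above all 4 water arrays. The NaCl difference of RPL26B was -0.36 ± 0.13 and missed the threshold (adjusted p = 0.061). RPL26A (AT3G49910), its paralog, read between 9.15 and 9.68 on all 16 arrays, with differences of 0.07 ± 0.12 in NaCl (adjusted p = 0.769) and 0.22 ± 0.12 in MV (adjusted p = 0.379).

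Next by p in NaCl were RPL35B (AT2G39390), another protein at the tunnel exit, at -0.34 ± 0.14 (adjusted p = 0.107) and RPL19C (AT4G02230), at -0.31 ± 0.14 (adjusted p = 0.117). Highest was RPL13aC (AT4G13170), at 0.31 ± 0.17 (adjusted p = 0.228). Arrays of the NaCl and water groups did not overlap for 2 members that were higher and 3 that were lower, against 16.0% and 15.8% of all probe sets. Within each line alone, limma called 0 of 45 members in NaCl, against 14.1% of all probe sets in wild type and 15.7% in the OsGRX8 line. At an unadjusted p below 0.05 those counts of members were 0 and 2, where 24.9% and 26.6% of all probe sets were below 0.05. Of the 3 measured root markers, EXPA7 fell in NaCl by 0.64 ± 0.13 (limma, adjusted p = 0.00298), at 1.14 to 1.56 against 1.92 to 2.2 in water, and PYK10 and EXPA18 were not called. The part of root tissue in the members' values was not tested.

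**Figure D3:**
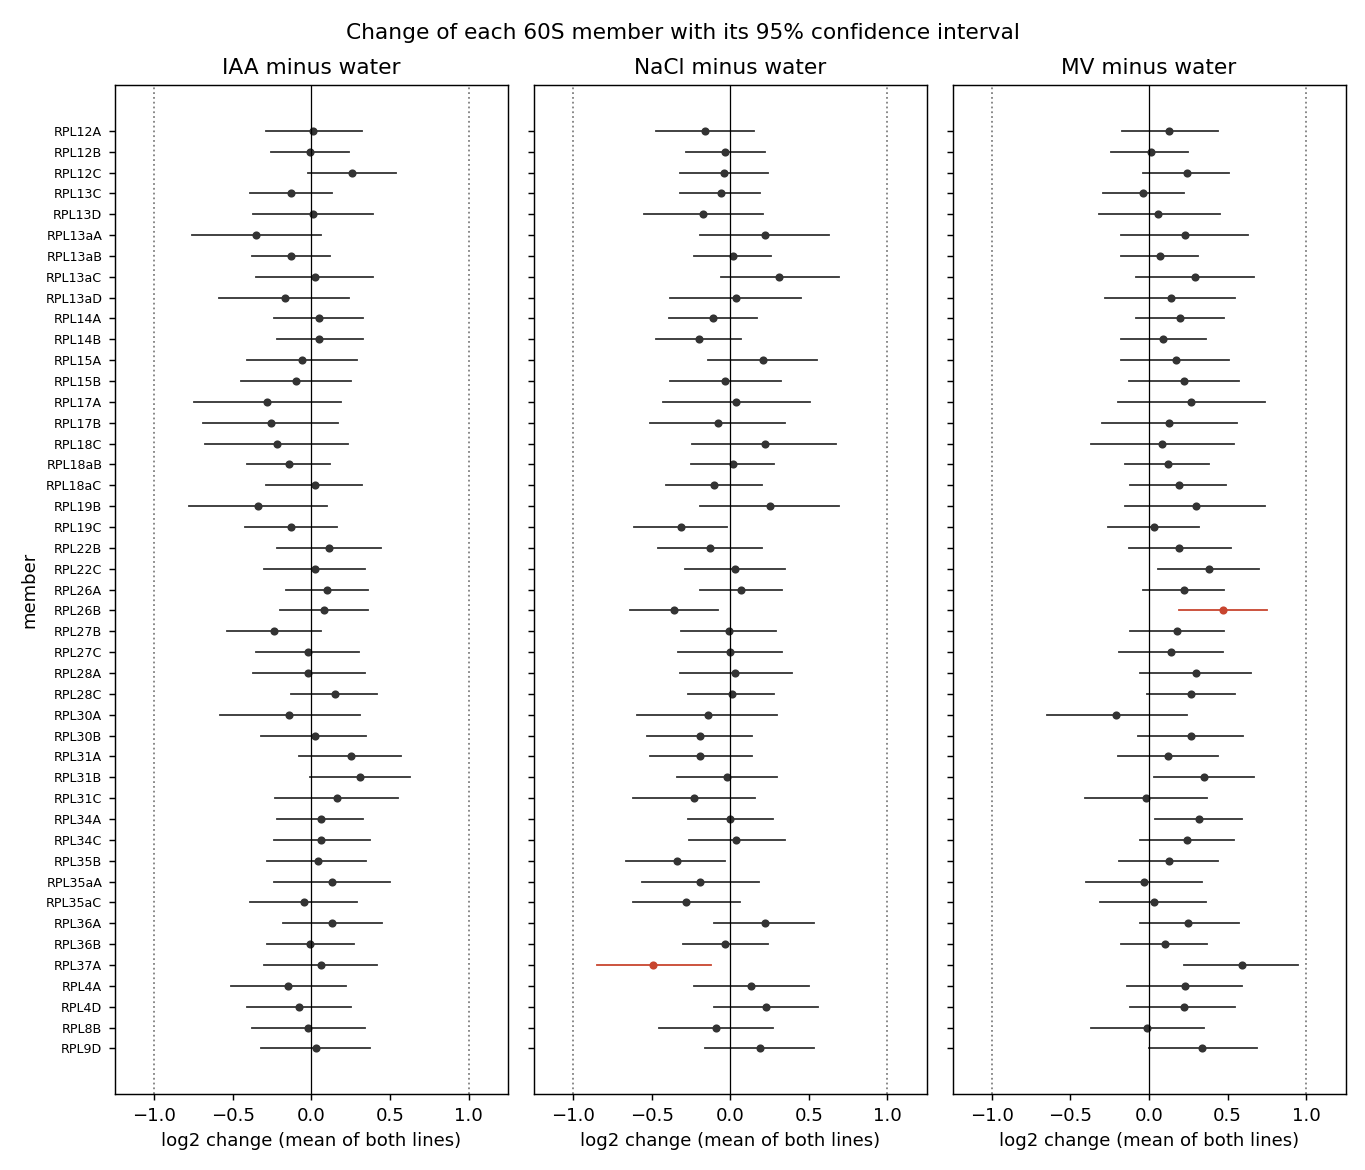
Log2 change of each of the 45 members (points, vertical axis by name) in IAA, NaCl and MV against water over the mean of both lines, with the 95% confidence interval from the limma fit (lines). Red marks members with an adjusted p below 0.05, RPL37A in NaCl and RPL26B in MV, and dotted lines mark a 2-fold change, which no interval crosses.

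In methyl viologen the 60S transcripts stood slightly above water as a group, and 1 of them passed the test. RPL26B rose by 0.47 ± 0.13 on the log2 scale over the mean of both lines, a 1.39-fold higher signal (limma, adjusted p = 0.0466). It was the only member called of 45, where 7.48% of all probe sets were called and 4.13% were called higher. RPL37A had a larger difference with a larger error, 0.59 ± 0.17 or 1.5-fold, and its adjusted p was 0.0523. RPL22C (AT5G27770) followed at 0.38 ± 0.15 (adjusted p = 0.166). Leaving out 1 array at a time, the count of called members ran from 0 to 2, with 0 in 6 of 8 cases; it was 1 without replicate 2 of wild type in MV and 2 without replicate 1 of the OsGRX8 line in MV.

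The median log2 difference of the members in MV was 0.187, and 40 of 45 were above 0. Because the members moved together from array to array, counts of members above water are not counts of independent results. For all probe sets the median was -0.0182 and 10517 of 22746 were above 0. The other 60S genes had a median of 0.195 and the 40S genes one of 0.147, while the plastid ribosomal protein genes had one of -0.122. The offset was larger on 1 MV array of each line. Between arrays of the same line and number, the median difference of MV from water was 0.334 and 0.119 for replicates 1 and 2 of wild type and 0.0215 and 0.234 for those of the OsGRX8 line, with 43, 36, 26 and 38 of 45 members above water. In wild type the members' median difference between MV and water was 0.249, but 0.0642 without replicate 1 in MV and 0.423 without replicate 2. The SD of the members' median between replicate arrays, pooled over the 8 groups, was 0.147. That is the spread of a single array, while the offset compares means over 4 MV and 4 water arrays. An error of the offset itself was not estimated. When each array was centred on the 80 cytosolic ribosomal protein genes outside the 45, the median difference in MV became -0.0206 and no member was called. Those 80 genes share the offset, so this centring takes it out by construction and cannot test it. Groups did not overlap for 7 members that were higher and for 0 that were lower, against 7.91% and 8.37% of all probe sets. Within a single line limma called 0 of 45 in MV (4.33% of all probe sets in wild type and 1.46% in the OsGRX8 line), and 1 and 2 members had an unadjusted p below 0.05, against 15.1% and 9.73% of all probe sets.

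RPL37A and RPL26B lay below water in NaCl and above water in MV, but both differences are taken against the same water arrays. The treatments were therefore set against each other directly, without the water arrays, a comparison chosen after these values were seen. Between MV and NaCl, over both lines, 4 of 45 members were called, all higher in MV, where 30.2% of all probe sets were called and 14.0% were higher in MV. At an unadjusted p below 0.05 there were 10 members, against 38.2% of all probe sets. The members as a list were offset here, with a median of 0.209 and 40 of 45 above 0. Medians were 0.212 for the other 60S genes, 0.163 for the 40S genes and -0.01 for all probe sets. Differences of single members include this shared offset. RPL37A was 1.07 ± 0.17 higher in MV than in NaCl on the log2 scale, or 2.11-fold (limma, adjusted p = 0.000283), and RPL26B was 0.83 ± 0.13 higher, or 1.78-fold (adjusted p = 0.000301). Differences of RPL35B and RPL30B (AT1G77940) were smaller, at 0.47 (adjusted p = 0.0252) and 0.46 (adjusted p = 0.0396). Both were no longer called, leaving 2 members, without replicate 2 of wild type in NaCl, replicate 1 of wild type in MV, replicate 1 of the OsGRX8 line in NaCl or replicate 2 of that line in MV. Under each of the other settings tried, RPL37A stayed below the threshold of 0.05, with differences of 0.84 to 1.22 and adjusted p-values of 0.000116 to 0.0034. RPL26B did as well, with 0.60 to 0.92 and adjusted p-values up to 0.0136, and fell out only where a 2-fold difference was also required.

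**Figure D4:**
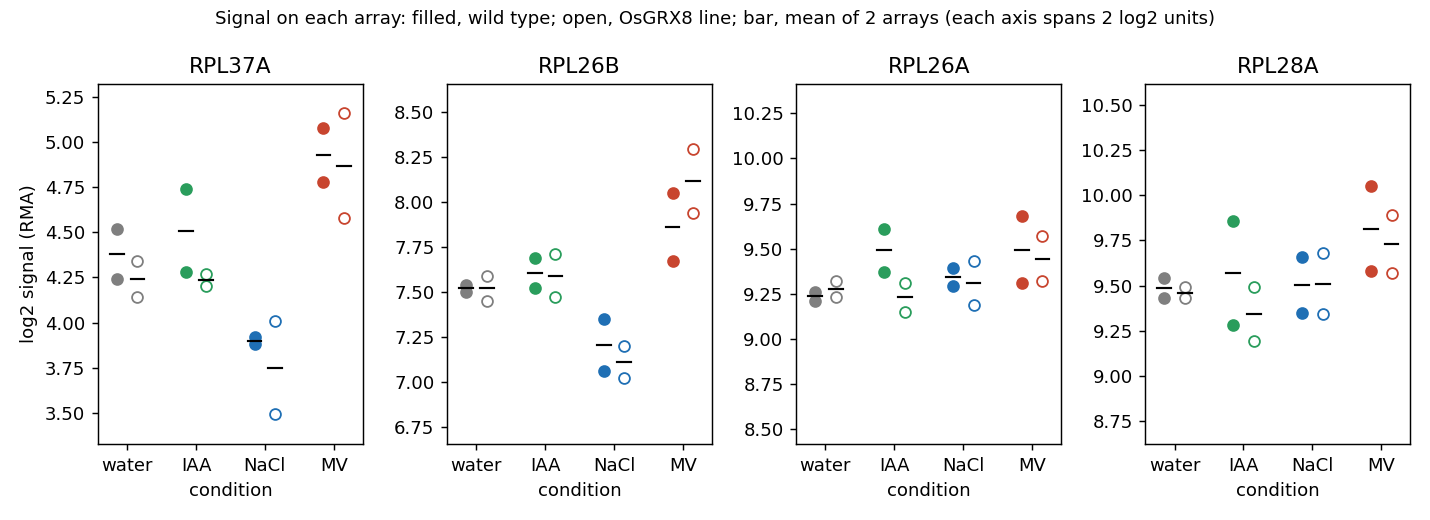
Log2 RMA signal (vertical axis) of RPL37A, RPL26B, its paralog RPL26A and RPL28A, the member closest to the mean of the others, in each condition (horizontal axis). Each point is 1 array, filled for wild type and open for the OsGRX8 line, and each bar is the mean of 2 arrays. RPL37A and RPL26B are lowest on the NaCl arrays and highest on most MV arrays, and every axis spans the same 2 log2 units.

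After 3 h of auxin no 60S transcript passed the test. Over the mean of both lines limma called 0 of 45 members in IAA, where 0.62% of all probe sets were called. At an unadjusted p below 0.05 there were 0 members, against 12.5% of all probe sets. The members' median log2 difference was 0.00951 and all probe sets had 0.0194. Differences ran from -0.35 in RPL13aA (AT3G07110) to 0.31 in RPL31B (AT4G26230), and every 95% interval stayed within 2-fold, 38 of 45 within 1.5-fold. The smallest p-values belonged to RPL31B, at 0.31 ± 0.15 (adjusted p = 0.408), and RPL12C, at 0.26 ± 0.13 (adjusted p = 0.439). RPL31B, on the rim of the tunnel exit, read 8.34 and 8.17 in water and 8.74 and 8.98 in IAA in wild type, and 8.36 and 8.15 in water and 7.98 and 8.56 in IAA in the OsGRX8 line. Its IAA arrays were above water in wild type and straddled water in the OsGRX8 line.

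Each line alone gave 0 called members in IAA (0.207% of all probe sets in wild type and 0.215% in the OsGRX8 line), with 3 and 0 at an unadjusted p below 0.05, against 12.1% and 4.26% of all probe sets. The arrays of wild type in IAA differed from each other more than those of the other groups. The SD of a member between replicates was 0.379 there and 0.122 to 0.255 in the other 7 groups. Replicate 2 read lower than replicate 1 by 1.15 in RPL18C (AT5G27850), 1.09 in RPL13aD (AT5G48760), 1.08 in RPL17B (AT1G67430) and 1.07 in RPL17A (AT1G27400), and higher by 0.77 in RPL35aA (AT1G07070) and 0.90 in RPL30A. On that array the actin control probe set for the 3' end was 6.10 above the one for the 5' end, and on replicate 2 of the OsGRX8 line in IAA it was 4.43 above, against 1.13 to 2.57 on the other 14 arrays. Over the 45 members, replicate 2 minus replicate 1 of wild type in IAA had a Pearson correlation of -0.351 with log2 of the gene's span in the annotation, and -0.209 over 13436 probe sets. Without both IAA replicate 2 arrays, 0 members were called in IAA over both lines (limma, lowest adjusted p = 0.915), and their median difference was -0.0552. Without replicate 1 of wild type in IAA, 5 members were called in that line (RPL13aA, RPL13aD, RPL17A, RPL17B and RPL18C, all lower) and 4 of these over both lines; the group's lone array was then assumed to vary as the other groups do.

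No 60S transcript differed between the OsGRX8 line and wild type at the threshold. In water, in each treatment and over the mean of the 4 conditions, limma called 0 of 45 members, and 0.0% of all probe sets. The same held for the 3 tests of whether the lines differ in their response to a treatment. At an unadjusted p below 0.05 there were 0 members in water, 3 in IAA, 2 in NaCl, 0 in MV and 1 over the mean. Of all probe sets, 1.12%, 7.32%, 4.48%, 5.33% and 5.85% were below 0.05 in those comparisons, so the members' counts were near or below the background. The responses to IAA, NaCl and MV gave 2, 1 and 0 members, against 2.84%, 2.16% and 2.2% of all probe sets. Over the mean of the 4 conditions the members' median difference (OsGRX8 line minus wild type) was -0.065, that of all probe sets 0.00547, and all 45 members had a 95% interval within 1.5-fold. In water the largest differences by p were RPL35B, at 0.22 ± 0.20, and RPL15B (AT4G17390), at 0.19 ± 0.23 (adjusted p = 1.0 for each).

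RPL12C stood first by p in 3 of these 8 tests. It encodes a protein at the base of the stalk where elongation factors bind. In wild type RPL12C read 7.76 and 7.64 in water, 8.29 and 8.27 in IAA, 7.78 and 7.51 in NaCl, and 8.12 and 7.95 in MV. Signals in the OsGRX8 line were 7.77 and 7.53 in water, 7.39 and 7.77 in IAA, 7.55 and 7.71 in NaCl, and 7.61 and 7.96 in MV. Both wild-type IAA arrays were above the other 14 arrays, and the lines overlapped in water, NaCl and MV. The OsGRX8 line minus wild type was -0.70 ± 0.18 in IAA (95% interval -1.09 to -0.3, limma adjusted p = 0.584) and -0.25 ± 0.09 over the mean of conditions (adjusted p = 0.766). The difference in the response to IAA was -0.65 ± 0.26 (adjusted p = 1.0).

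Other members had the smallest p between the lines in single conditions or responses. RPL31B differed by -0.59 ± 0.21 in IAA (adjusted p = 0.61). RPL15B, in the interior of the subunit, read 8.71 and 8.40 in wild type in NaCl and 7.75 and 8.29 in the OsGRX8 line, a difference of -0.54 ± 0.23 (adjusted p = 1.0). In water RPL15B read 8.19 and 8.27 in wild type and 8.23 and 8.59 in the OsGRX8 line, so its difference in response to NaCl was -0.72 ± 0.32 (adjusted p = 1.0). RPL13C, near background, differed by 0.39 ± 0.17 in NaCl and by 0.14 ± 0.08 over the mean (adjusted p = 1.0 and 0.913), and by 0.34 ± 0.24 in its response to NaCl (adjusted p = 1.0). In MV the first by p were RPL26B, at 0.26 ± 0.18, and RPL12C, at -0.25 ± 0.18 (adjusted p = 0.992 for each). Differences in response were -0.64 ± 0.29 to IAA in RPL35B, and to MV -0.42 ± 0.29 in RPL35B and -0.34 ± 0.30 in RPL31A (AT2G19740), each with an adjusted p of 1.0. The 95% interval of a difference between lines in 1 condition reached a median of 0.46 to each side, and that of a difference in response one of 0.65. Smaller differences could go unseen. After adjustment, larger ones also went uncalled, as with RPL31B at -0.59 in IAA and RPL15B at -0.72 in its response to NaCl.

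RPL35B read 7.27 and 7.11 in water, 7.38 and 7.72 in IAA, 7.12 and 6.81 in NaCl and 7.79 and 7.26 in MV in wild type. In the OsGRX8 line it read 7.46 and 7.35 in water, 7.09 and 7.16 in IAA, 6.76 and 7.13 in NaCl and 7.28 and 7.36 in MV. IAA arrays were above water in wild type and below water in the OsGRX8 line, and NaCl arrays were below water in the OsGRX8 line and overlapped it in wild type.

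**Figure D5:**
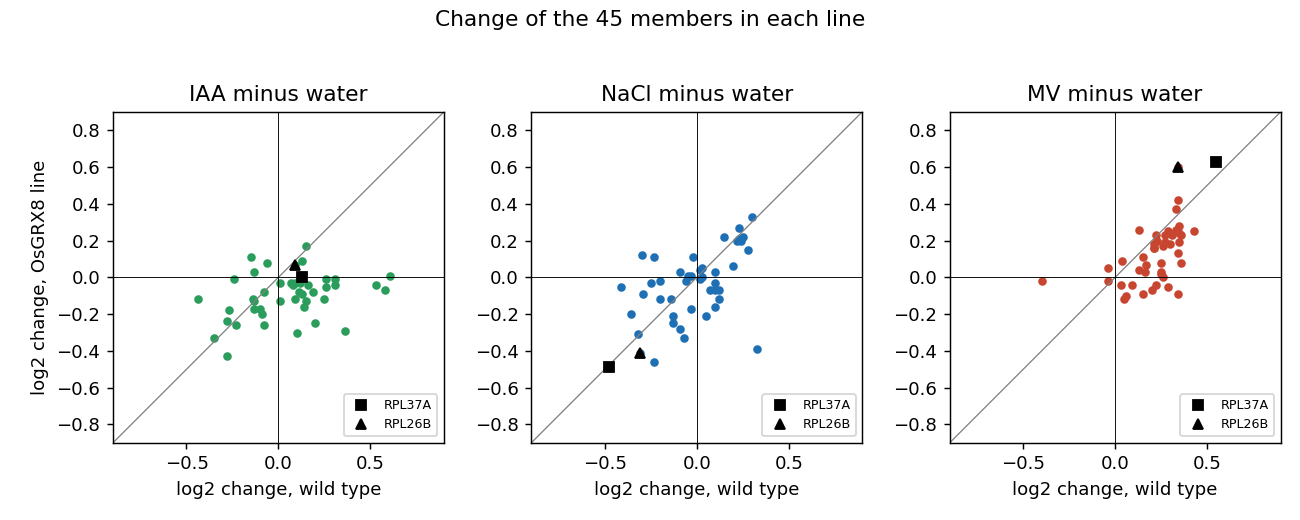
Log2 change of each of the 45 members against water in wild type (horizontal axis) and in the OsGRX8 line (vertical axis) for IAA, NaCl and MV, with 2 arrays per group. The diagonal marks equal change, the black square is RPL37A and the black triangle RPL26B, and both sit on the lower left in NaCl and on the upper right in MV.

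Gaps between paralogs of a family were of the same order as the members' differences from water. The standard errors of these differences, 0.11 to 0.22 in NaCl over both lines, were of that order too. Whether paralogs differ from each other was not tested. In the 18 families with at least 2 measured members, the gap between the highest and the lowest paralog had a median of 0.12 in NaCl, 0.12 in MV, 0.15 in IAA and 0.07 between the lines, where the members' own median differences without sign were 0.131, 0.194, 0.0991 and 0.0741. The largest gap in NaCl was in RPL19, a family that forms a bridge to the 40S subunit: RPL19B (AT3G16780) was at 0.25 ± 0.20 and RPL19C at -0.31 ± 0.14. In MV it was in RPL30, with RPL30B at 0.27 and the dim RPL30A at -0.21. None of these 4 passed the test. RPL37A is the only measured member of its family among the 45. Of its paralogs on the list of other 60S genes, RPL37B (AT1G52300) had differences of -0.06 ± 0.16 in NaCl and 0.24 ± 0.16 in MV, and RPL37C (AT3G16080) of -0.19 ± 0.15 and 0.39 ± 0.15, with adjusted p-values from 0.153 to 0.864. Between MV and NaCl, RPL37C was 0.58 ± 0.15 higher in MV (limma, adjusted p = 0.00862) and RPL37B was at 0.30 ± 0.16 (adjusted p = 0.2). The paralogs of RPL35B on the same list, RPL35A, RPL35C and RPL35D, were 0.40, 0.57 and 0.43 higher in MV than in NaCl (limma, adjusted p = 0.0374, 0.013 and 0.0549). The whole list of other 60S genes had a median of 0.212 in that comparison.

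The 3 families with 3 or more measured paralogs show the range within a protein. In RPL12, differences in IAA were 0.01 in RPL12A (AT2G37190), -0.01 in RPL12B (AT3G53430) and 0.26 in RPL12C, and in NaCl they lay between -0.16 and -0.03. In MV RPL12A was at 0.13, RPL12B at 0.01 and RPL12C at 0.24. RPL13a is a protein of the subunit's outer body, and its 4 paralogs were at 0.22, 0.02, 0.31 and 0.04 in NaCl for A to D and at 0.23, 0.07, 0.29 and 0.14 in MV. In IAA the same paralogs were at -0.35, -0.13, 0.02 and -0.17, with RPL13aA and RPL13aD among the members that read low on replicate 2 of wild type. RPL31A, RPL31B and RPL31C (AT5G56710) were at 0.25, 0.31 and 0.16 in IAA, at -0.19, -0.02 and -0.23 in NaCl, and at 0.12, 0.35 and -0.02 in MV. No paralog of these 3 families passed the test in the 3 treatments. RPL28A and RPL31A are adjacent genes, and they differed by 0.03 and -0.19 in NaCl and by 0.30 and 0.12 in MV.

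Grouped by place in the subunit, the members had medians close to each other. Families around the exit tunnel (RPL4, RPL17, RPL19, RPL26, RPL31 and RPL35, 12 members) had median differences of -0.0218 in IAA, -0.0502 in NaCl and 0.217 in MV, and 11 of the 12 were above 0 in MV. RPL4A (AT3G09630) and RPL4D (AT5G02870), whose protein lines the tunnel, were at 0.13 ± 0.17 and 0.23 ± 0.15 in NaCl and at 0.23 ± 0.17 and 0.22 ± 0.15 in MV. RPL17A and RPL17B, which also reach into the tunnel, were at 0.04 ± 0.22 and -0.08 ± 0.20 in NaCl. Nearer the catalytic core and the factor-binding side (RPL8, RPL9 and RPL12, 5 members), medians were 0.0122, -0.0392 and 0.131 in IAA, NaCl and MV. RPL9D (AT4G10450) was the highest of these in MV, at 0.34 ± 0.16 (adjusted p = 0.266), and RPL8B was at -0.01 ± 0.17 with a signal near background. The 28 members of the other 14 families had medians of 0.00186, -0.0036 and 0.184, and RPL37A was the only one of them called in a treatment.

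Other genes of the translation apparatus gave few calls in salt as well, where 25.5% of all probe sets were called. Of the 47 measured 40S genes, RPS13A rose by 0.53 in NaCl, 4 fell, and the list's median was -0.0213. Log2 changes of the 4 were -0.90 in RPS16B, -0.70 in RPS11B, -0.69 in RPS27A and -0.64 in RPS19B. RPS16B (AT3G04230), a paralog of a protein at the decoding site, was the strongest of these. It read 4.02 to 4.38 on the NaCl arrays and 4.84 to 5.29 on the water arrays, with no overlap (-0.90 ± 0.11, limma adjusted p = 6.5e-05). Of 33 other 60S genes, 1 fell, RPP2C (AT3G28500), an acidic stalk protein, at -0.75 ± 0.14 (adjusted p = 0.00147), and the median was -0.0309. Of 14 measured genes of ribosome assembly, NOP58b (AT3G05060), a core protein of the particles that methylate rRNA, rose by 0.57 ± 0.16 (adjusted p = 0.0183). RRP7 (AT5G38720), of the 40S precursor, fell by 0.68 ± 0.17 (adjusted p = 0.0078). None of 9 plastid ribosomal protein genes, 4 translation factors or 2 genes of TOR signalling and translation control was called in NaCl by limma. At an unadjusted p below 0.05 their counts were 0, 0 and 1, against 34.5% of all probe sets.

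In MV the other 60S list gave 1 call, RPL27A (AT2G32220), which rose by 0.48 ± 0.12 (limma, adjusted p = 0.0269), and its paralogs among the members, RPL27B (AT3G22230) and RPL27C (AT4G15000), were at 0.18 ± 0.14 and 0.14 ± 0.15 (adjusted p = 0.579 and 0.732). No 40S, assembly or plastid gene was called in MV, with 3, 3 and 1 at an unadjusted p below 0.05. Of all probe sets, 7.48% were called in MV and 19.0% had an unadjusted p below 0.05. In IAA limma called none of the other 60S, 40S, assembly or plastid genes, with 5, 4, 1 and 0 at an unadjusted p below 0.05. The shares of all probe sets in IAA were 0.62% called and 12.5% below 0.05 before adjustment. Between MV and NaCl, 7 of 33 other 60S genes and 7 of 47 genes of the 40S list were higher in MV and none was lower, against the 4 of 45 members and 14.0% of all probe sets. Over all 8 groups the F test, which called 24.3% of all probe sets, called 5 of 47 genes of the 40S list, 3 of 33 other 60S genes, 1 of 14 assembly genes and 0 of 9 plastid genes, next to the 2 of 45 members.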

How the data were processed

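The deposited table holds log2 probe-set values, 1 column per array, made by the authors with RMA, per the submitters' processing notes. Neither RMA's version nor how probes were assigned to sets is stated in the sources used here. Of 22810 probe sets, 64 controls were left out and 22746 tested. Genes were named from the platform annotation: 13513 probe sets named 1 gene, 503 several and 8730 none, and 13436 of the first kind matched a locus of the RefSeq table for TAIR10.1. Members were read from the brightest probe set of exactly 1 gene.

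The R 4.3.3 package limma 3.58.1 (lmFit, then eBayes with no trend) was used to fit 8 group means per probe set to all 16 arrays. Residual degrees of freedom were 8 and prior ones 4.52. P-values are two-sided and were adjusted after Benjamini and Hochberg over all 22746 probe sets of a comparison; the threshold was 0.05. The errors printed are this model's standard errors. The number of arrays limits the precision: on simulated data of the same size, the comparison of NaCl with water over both lines recovered 34.3%, 82.1% and 95.5% of log2 changes of 0.5, 1 and 2, and 2.99%, 59.7% and 90.9% within wild type. Only 67, 67 and 66 probe sets were changed there, while 25.5% were called in the real comparison over both lines, so the adjustment was stricter. Simulated noise was also independent between probe sets, without shifts shared by the members. These shares therefore do not give the power of the real comparison.

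The members, gene lists, places in the subunit and tests were chosen with earlier results of these data known, and the comparison of MV with NaCl and the centring on other ribosomal proteins after seeing the values. Array values are given for the members with the smallest and largest F test p, and for those called in a treatment or, with no call, the 2 smallest p. Of other lists, genes with the smallest F test p and those called are named. Further members were named after their values were seen. Alternatives were another quantile normalization, median centring, brighter probe sets only, an intensity trend, array weights, a replicate block, no cross-hybridizing probe sets, the compared arrays only, a mean over the probe sets of a gene, a 2-fold minimum, and leaving out arrays. Same-numbered replicates were checked for pairing: over 28 pairs of groups the correlation of their differences across all probe sets was -0.108 to 0.363, with 9 above 0.1. The main model took the numbers as names only, although the members' split followed the number within each line. The replicate block used the same term for both lines, so it could not take up shifts of opposite direction in the lines. No sequences are printed, since none were given for these genes.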

Additional observations from a re-analysis of the deposited data

Results flagged for a closer look

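The control probe set for 25S rRNA, which is no gene of the members but the RNA core of the same subunit, was above every water array on all 4 NaCl arrays. It read 9.46 to 9.87 in NaCl and 2.53 to 9.01 in water. In MV it read 8.50, 8.16, 8.71 and 8.82, and in IAA 2.79, 2.53, 5.27 and 2.17. The 2 wild-type water arrays were 2.53 and 9.01 and those of the OsGRX8 line 5.98 and 8.97, so this probe set varied widely between replicates. The IAA arrays of the OsGRX8 line also lay apart, at 5.27 and 2.17. How much rRNA entered each labelling was not tested.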

How the results depend on the processing

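The differences of RPL37A and RPL26B in NaCl and MV, and of RPL31B and RPL12C in IAA, kept their direction under every setting run. The members' median in MV turned to -0.0206 with centring on other ribosomal proteins. Those genes share the offset, so that centring removes it by construction. In NaCl over both lines (1 member called), 0 members were called with a 2-fold minimum, repeated quantile normalization, median centring, an intensity trend or centring on other ribosomal proteins. The count was 4 with array weights and 2 with the compared arrays only, without both IAA replicate 2 arrays or without the 4 IAA arrays, and leaving out 1 array gave 0 to 1. In MV over both lines (1 called), the same first 5 settings gave 0. Brighter probe sets only, array weights, the compared arrays only and both removals of IAA arrays gave 2, and leaving out 1 array 0 to 2. For IAA, leaving out 1 array gave 0 to 5 in wild type and 0 to 4 over both lines, and array weights gave 1 call in MV in the OsGRX8 line (RPL26B). The F test (2 called) gave 1 (without replicate 2 of the OsGRX8 line in MV) to 6 (without replicate 1 of wild type in IAA) and 0 with centring on other ribosomal proteins. MV against NaCl (4 called) gave 1 with the 2-fold minimum, 2 with repeated quantile normalization, 2 with that centring, and 2 to 6 when 1 array was left out. Centring on other ribosomal proteins moved the median of all probe sets in MV from -0.0182 to -0.226 and the share of calls that were higher from 55.2% to 30.4%. With the replicate block the counts were 1 in NaCl, 1 in MV and 2 in the F test, but the member called in MV was RPL37A (adjusted p = 0.0273) in place of RPL26B (0.0527). The causes of the shifts under other settings were not tested. In comparisons of the lines and of their responses 0 members were called under every setting run.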
